A study of Mus musculus with 2 samples.

Results

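The transcripts of 10 transcription factors of epithelial differentiation were measured in the whole stomach of the mouse. They were Bhlha15, Spdef, Foxq1, Klf4, Klf5, Elf3, Ehf, Grhl1, Grhl3 and Trp63, chosen by name, and all 10 were found among the 43346 mouse genes of the tables. Polyadenylated RNA, over 200 nucleotides and depleted of ribosomal RNA, was sequenced as stranded paired reads of 76 bases from 2 libraries of 1 group, replicates 1 and 2, both from C57BL/6J mice aged 8 weeks, an inbred strain, with no treatment named. Each library is a pool of males and females, the labels describe littermates, and both carry the same donor record, so the spread given here is that between these libraries and may be partly technical. With 1 group there is no contrast and no p-value. The tissue held acid-secreting (parietal) cell markers, Atp4a at 2697 and 1389 TPM in replicates 1 and 2, and the squamous keratin gene Krt5 at 85.2 and 114.6. Of the general epithelial genes, Cdh1 stood at 84.4 and 108.8 and Epcam at 79.2 and 40.4. TPM, the level of a gene corrected for transcript length, is its transcripts scaled so that each library has the same total.

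The mouse stomach joins a squamous forestomach to a glandular part in which pit, mucous neck, parietal and chief cells arise from shared progenitors. Bhlha15 (also called Mist1) is a basic helix-loop-helix factor that shapes the secretory apparatus of chief cells, Spdef is an ETS factor of mucus-secreting cells, and Foxq1 is a forkhead factor tied to mucin production in pit cells. Klf4 and Klf5 are zinc finger factors of differentiating and of proliferating epithelium, Elf3 and Ehf are epithelium-specific ETS factors, Grhl1 and Grhl3 are grainyhead factors of the epithelial barrier, and Trp63 encodes p63, the factor of squamous basal cells.

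Some of the results below rest on which exons a transcript uses, so the coding bases at those places are shown here. Trp63 has an upstream start that gives TA forms with an activation domain, and a downstream start that gives delta N forms without it. Both are spliced into the same exon. The lower-case bases belong to 1 form, the capitals mark the first 30 bases of the shared exon (chr16:25820388-25820417, plus strand, mm10), and all are coding bases of GENCODE M21 transcripts.
Trp63 delta N (the transcript named Trp63-205, chr16:25802060-25802101): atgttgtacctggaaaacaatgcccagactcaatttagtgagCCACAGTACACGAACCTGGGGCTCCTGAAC
Trp63 TA (Trp63-202, last 60 coding bases before the shared exon, chr16:25764237-25764296): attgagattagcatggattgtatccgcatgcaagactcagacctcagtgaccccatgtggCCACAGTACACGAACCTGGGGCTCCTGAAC
The delta N form has 42 coding bases before the shared exon and the TA form has 324.

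Elf3 transcripts differ by 60 coding bases (20 codons) of an inner exon, which Elf3-201 keeps and Elf3-202 skips. The capitals mark these bases (chr1:135257227-135257286, minus strand, mm10), with 15 coding bases on each side in lower case.
Elf3-201: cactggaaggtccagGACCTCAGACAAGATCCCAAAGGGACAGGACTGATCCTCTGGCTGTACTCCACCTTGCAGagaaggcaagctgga
The skip shortens the coding sequence from 1173 to 1113 bases.

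Grhl1 has RefSeq promoters at both of its annotated starts, shown because the data place the reads on 1 of them. Each line gives 250 bases before the start (GRCm38.p6, plus strand), with GC boxes, searched as GGGCGG on both strands, in capitals.
Grhl1 upstream start, chr12:24572037-24572286: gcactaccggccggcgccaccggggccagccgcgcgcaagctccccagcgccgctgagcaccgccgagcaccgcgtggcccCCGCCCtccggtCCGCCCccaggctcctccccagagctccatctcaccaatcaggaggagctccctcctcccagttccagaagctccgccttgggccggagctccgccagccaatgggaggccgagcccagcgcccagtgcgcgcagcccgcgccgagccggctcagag
Grhl1 downstream start, chr12:24580469-24580718: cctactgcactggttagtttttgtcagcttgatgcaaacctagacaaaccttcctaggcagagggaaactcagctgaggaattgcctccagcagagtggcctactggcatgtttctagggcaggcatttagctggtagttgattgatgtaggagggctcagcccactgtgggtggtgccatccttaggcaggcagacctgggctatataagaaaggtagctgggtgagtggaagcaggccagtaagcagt

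All 10 factors reached a TPM of 1 in both libraries, as did 48.9% of 21474 protein-coding genes. Their mean TPM spanned 4.61 to 312.2, with a median of 50.3 against 1.15 for protein-coding genes. Foxq1 and Klf4 led, Elf3, Klf5 and Spdef followed, and the squamous factors Trp63, Grhl3 and Grhl1 were lowest. Together the factors held 1043 TPM in replicate 1 and 762.9 in replicate 2.

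**Figure D1:**
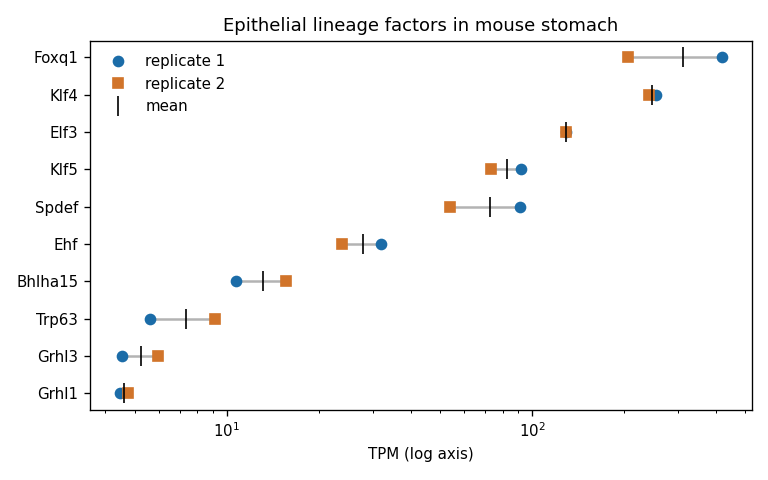
TPM of each factor (log axis) in replicate 1 (circles) and replicate 2 (squares), with the mean of both as a vertical tick. Foxq1 spans 206.3 to 418.1 and overlaps Klf4, while Elf3 lies at 129.3 and 129.2 and the 3 squamous factors stay below 10 TPM.

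Foxq1 (chromosome 13, 31556134 to 31560976 on mm10) had 418.1 TPM in replicate 1 and 206.3 in replicate 2, a mean of 312.2 ± 149.8 (SD, n = 2), and ranked 222 among protein-coding genes. It was high in both libraries but led the factors only in replicate 1. Foxq1 is annotated without an intron. Its deposited length is 2653 bases, against 4843 in GENCODE M21, so reads from the added bases are not in its count. Klf4 (chromosome 4, 55527143 to 55532466) had 254.7 and 241.1 TPM (247.9 ± 9.57) and was the most abundant factor in replicate 2. The ranges of Foxq1 and Klf4 overlapped, so their order is not set by these libraries.

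Elf3 (chromosome 1, 135253575 to 135258568) had 129.3 and 129.2 TPM (mean 129.2 ± 0.0849), the closest agreement among the 10. Klf5 (chromosome 14, 99298691 to 99315036) had 92.1 and 73.2 TPM (82.6 ± 13.3), on a deposited length of 1721 bases against 3352 in M21. Spdef (chromosome 17, 27714352 to 27728955) had 91.6 and 53.8 (72.7 ± 26.7). Klf5 and Spdef were nearly equal in replicate 1 and parted in replicate 2, with overlapping ranges. Ehf (chromosome 2, 103263433 to 103303278) had 32.0 and 23.8 TPM (27.9 ± 5.79), a value that turned on transcript length, as described below.

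Bhlha15 (chromosome 5, 144190286 to 144194441) had 10.7 TPM in replicate 1 and 15.7 in replicate 2 (13.2 ± 3.52). Although it is a factor of chief cells, whose product Pgc held 101314 and 148481 TPM, it stood below the pit, mucous and general epithelial factors as deposited. Ehf is the exception once transcript length is treated differently, as given below. Trp63 (chromosome 16, 25683763 to 25892102) had 5.60 and 9.13 TPM (7.37 ± 2.50), Grhl3 (chromosome 4, 135541888 to 135573630) 4.52 and 5.95 (5.24 ± 1.01), and Grhl1 (chromosome 12, 24572283 to 24617391) 4.46 and 4.75 (4.61 ± 0.205). These squamous factors rested on 676 to 2400 read pairs per library. Across the libraries the ranges of Trp63 and Grhl3 overlapped, and so did those of Grhl3 and Grhl1, although each library by itself gave this order. Apart from Foxq1 with Klf4 and Klf5 with Spdef, all other neighbours in the order by mean TPM had separate ranges.

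In whole tissue, fewer cells of a type and less RNA per cell cannot be told apart, and this applies to each difference between the libraries below. The ratios are log2 of replicate 2 over replicate 1 in counts scaled by TMM, and their 95% exact binomial intervals cover counting error only. In replicate 2, 5 factors were higher and 5 lower, and the median of their log2 ratios was -0.07. Of the 11046 protein-coding genes whose TPM averaged 1 or more, 47.0% were higher. For the 6837 whose TPM averaged 5 or more, the median log2 ratio was -0.13 and the SD over genes 0.52.

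**Figure D2:**
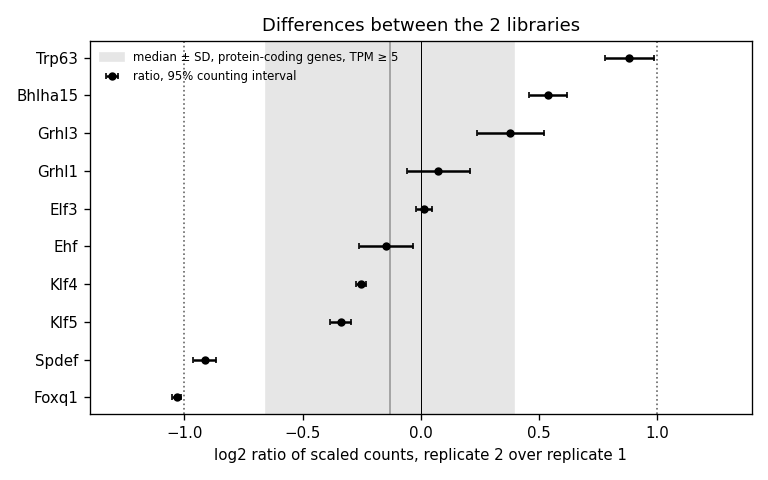
Log2 ratio of scaled counts (replicate 2 over replicate 1) of each factor, with bars for the 95% counting interval. The grey band is the median ± SD over protein-coding genes averaging TPM 5 or more, and the dotted lines mark 2-fold. Foxq1, at -1.03, is the only factor past a dotted line.

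The mucous and pit factors were lower in replicate 2. Foxq1, with 59182 and 34861 read pairs, had a log2 ratio of -1.03 (interval -1.05 to -1.01) and was the only factor to differ 2-fold, where 7.42% of the protein-coding genes averaging TPM 1 or more did so, 5.19% being lower and 2.24% higher in replicate 2. Scaled to the spike-in controls its ratio was -0.99, below 2-fold. Relative to the median of the protein-coding genes averaging TPM 5 or more it was -0.90, and Trp63, at 1.01, then became the only factor past 2-fold. The median of the genes averaging TPM 1 or more was -0.03, so this switch depends on the genes taken as reference. Spdef, with 8402 and 5370 read pairs, had a log2 ratio of -0.91 (interval -0.96 to -0.87).

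The chief cell factor and the squamous factors had the opposite direction. Trp63, with 1081 and 2400 read pairs, had a log2 ratio of 0.88 (interval 0.78 to 0.99). Bhlha15, with 2029 and 3547, had 0.54 (0.46 to 0.62), and Grhl3, with 676 and 1060, had 0.38 (0.24 to 0.52). For Trp63 and Bhlha15 the ratio lay above the median plus 1 SD of the genes, while Grhl3 lay just inside it. Grhl1 had 0.07, with an interval from -0.06 to 0.21 that includes 0, so no difference was detectable at this depth.

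For the factors of general epithelium, Klf5 had a log2 ratio of -0.34 (interval -0.38 to -0.29), Klf4 -0.25 (-0.27 to -0.23), Ehf -0.15 (-0.26 to -0.03) and Elf3 0.01 (-0.02 to 0.05). All lay inside the SD of the protein-coding genes. The direction of Elf3 changed with the scaling, and its ratio was -0.03 with DESeq2 size factors. TPM depended on the secreted products Clps and Pgc, which took more of replicate 2. With both left out of the total, Klf4 stood at 361.6 in replicate 1 and 421.1 in replicate 2 and Elf3 at 183.6 and 225.6. These values were higher in replicate 2, while Foxq1 (593.7 and 360.3), Spdef (130.0 and 93.9), Klf5 (130.7 and 127.9) and Ehf (45.5 and 41.6) remained lower. TPM also depends on the effective transcript length, which for Klf4 was 2662 bases in replicate 1 and 2396 in replicate 2. With all read pairs on its longest transcript, and Clps and Pgc kept, Klf4 had 240.2 and 203.6 TPM. The part of transcript length in the higher Klf4 value of replicate 2 was not tested.

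Marker genes of the cell types were set beside the factors. Of 7 columnar and general epithelial genes, set beside Klf4, Klf5, Elf3 and Ehf, 5 were lower in replicate 2 and 2 higher (median log2 ratio -0.15). Epcam had a log2 ratio of -0.98 and Cdh1 0.37. The part of these cells in the ratios of those factors was not tested. Of 6 chief cell markers averaging TPM 1 or more, 5 were higher in replicate 2 (median log2 ratio 0.51), among them Pga5, a pepsinogen, at 79.2 and 133.1 TPM, and the summed level of the list was 103961 and 152300 TPM. Bhlha15 had the same direction at 0.54. Of the small GTPase genes known as its targets, Rab3d had 139.2 and 139.6 TPM and Rab26 stood at 0.47 and 0.51. Bhlha15 is also expressed in plasma and pancreas acinar cells. Of 4 plasma cell genes 2 reached TPM 1 in both libraries. Jchain had 1.88 and 1.14 TPM and Mzb1 0.07 and 0.08, and the summed level of 80.4 and 102.2 was mostly Sdc1, also an epithelial gene, at 77.2 and 100.1. Of 6 acinar genes 2 reached TPM 1 in both libraries, Cel at 5.67 and 7.32 and Ctrb1 at 8.27 and 7.10, and the summed level was 14.5 and 16.5. The part of these cells in the Bhlha15 level was not tested.

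**Figure D3:**
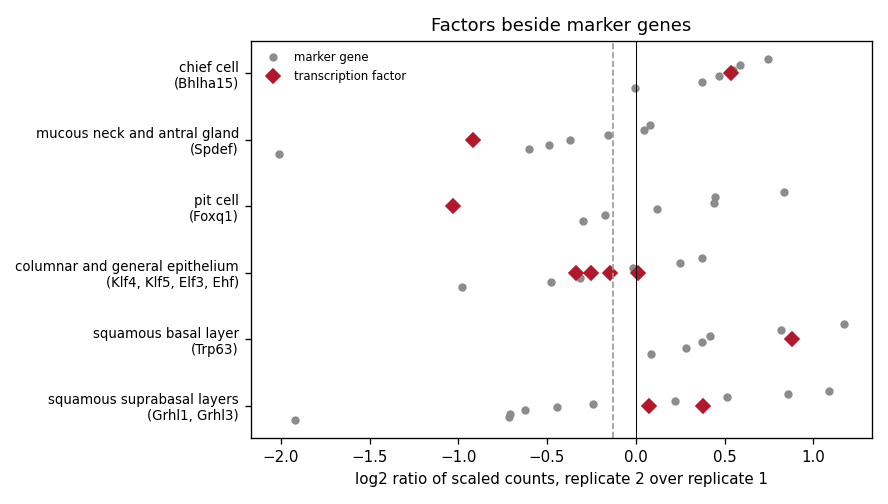
Log2 ratio of scaled counts (replicate 2 over replicate 1) of marker genes (grey circles) and of the factors named with each cell type (red diamonds); the dashed line is the median of protein-coding genes. Bhlha15 and Trp63 lie within the spread of the chief and squamous basal markers, and Foxq1, at -1.03, lies below all 6 pit cell markers.

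Foxq1 did not follow the pit cell markers. Of those 6 genes, 4 were higher in replicate 2 (median 0.28), and the lowest ratio was that of Psca, at -0.30. The mucin gene Muc5ac stood at 499.5 and 895.0 TPM (log2 ratio 0.83), opposite to Foxq1 at -1.03. The summed level of the list was 72975 and 71388 TPM. For Spdef the direction matched that of 5 of 7 mucous neck and antral gland genes (median -0.37), led by the water channel gene Aqp5 at 78.8 and 19.3 TPM (log2 ratio -2.01). The gland mucin gene Muc6 stood at 221.0 and 218.1 TPM, and the secretory protein gene Agr2 at 233.5 and 244.1. The parietal cell genes averaging TPM 1 or more were also lower in replicate 2, 3 of 3 with a median log2 ratio of -0.77. The part of these cells in the Foxq1 and Spdef ratios was not tested.

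Trp63 and the genes of the squamous basal layer were higher in replicate 2 together. All 6 basal genes were higher (median 0.40), with Krt15 at 7.10 and 16.2 TPM (log2 ratio 1.17) and Col17a1, a hemidesmosome gene, with a log2 ratio of 0.82, and their summed level was 287.1 and 355.5 TPM. The suprabasal genes were split, with 4 of 10 higher and 6 lower (median -0.34). Among them the envelope gene Lor had 1056 and 280.6 TPM (log2 ratio -1.92) and Cnfn 4017 and 2260 (-0.71), while the desmosome gene Dsg3 had 1.60 and 3.46 (1.09). The summed suprabasal level was 7823 and 4479 TPM. Grhl1 and Grhl3, at 0.07 and 0.38, lay inside the range of the suprabasal genes. That range, -1.92 to 1.09, holds all 10 factors, so it ties neither of them to these cells. The part of squamous cell number in these ratios was not tested.

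Other cell types in which a factor is known to be active gave these values. Klf4 is also an endothelial gene, and 3 of 3 endothelial markers were higher in replicate 2 (median 0.64, summed level 15.5 and 24.2 TPM), where Klf4 was lower by scaled counts. Of the 5 intestinal genes 1, Vil1, reached TPM 1 in both libraries, and Cdx1 had 0.01 and 0. Of 3 epidermal genes, Krt1 had 284.5 and 272.2 TPM, Krt10 had 397.4 and 289.6, and Flg was listed at 0. Leukocyte genes stayed at or below 1 TPM, with Ptprc at 0.95 and 1.00. Smooth muscle genes went both ways, with Des at 806.4 and 340.5 TPM and Myh11 at 21.1 and 38.8. The part of these cells in the factor levels was not tested.

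Among relatives of the factors, none reached the level of Foxq1 or Klf4 except inhibitors of helix-loop-helix factors. Id1 had 811.1 and 626.0 TPM and Id3 411.7 and 306.8, and Id2 followed at 59.4 and 48.1. These proteins bind the E-protein partners of Bhlha15, of which Tcf3 had 33.6 and 30.9 TPM, Tcf12 16.6 and 20.8, and Tcf4 7.42 and 10.4. Of the 15 helix-loop-helix genes listed, 10 reached TPM 1 in both libraries, and Ptf1a, the pancreatic acinar factor, had 5.27 and 2.79 TPM. Atoh1, the factor of intestinal secretory cells, was listed at 0. The helix-loop-helix genes averaging TPM 1 or more were lower in replicate 2 in 9 of 11 cases, where Bhlha15 was higher. Of all protein-coding genes at this level, 47.0% were higher in replicate 2.

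Of the 19 listed ETS relatives, 16 reached TPM 1 in both libraries with a median of 4.62 TPM. Ets2 was the highest at 36.2 and 16.2 TPM, below Elf3, Spdef and, by deposited TPM in replicate 2, Ehf. Elk3 had 16.2 and 12.4 TPM, Elf2 11.9 and 13.4, and Spi1, a factor of myeloid cells, 12.9 and 8.42. Spic was listed at 0. Of the 20 forkhead genes 14 reached TPM 1 in both, led by the endoderm factors Foxa2 at 78.6 and 52.1, Foxa3 at 48.4 and 46.0 and Foxa1 at 47.8 and 42.2, together with Foxp1 at 51.1 and 46.2. Foxf1 and Foxf2, factors of gut mesenchyme, had 45.1 and 29.4 TPM and 32.9 and 25.7. Of the forkhead genes averaging TPM 1 or more, 11 of 15 were lower in replicate 2 and 4 higher (median -0.37), where Foxq1 was lower. Of all protein-coding genes averaging TPM 1 or more, 47.0% were higher in replicate 2.

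Klf3, at 52.4 and 48.3 TPM, was the most abundant of 15 other Kruppel-like genes, of which 10 reached TPM 1 in both libraries. Klf2, an endothelial and leukocyte factor, had 33.0 and 15.6 TPM (log2 ratio -1.09), Klf15 had 31.8 and 18.2, and Klf16 24.0 and 15.6. Klf14 had no reads. In the grainyhead family Grhl2, a factor of simple epithelium, had 4.39 and 6.33 TPM, overlapping both Grhl1 and Grhl3, so the 3 grainyhead genes lay within 4.39 and 6.33 TPM. Tfcp2l1 stood higher at 23.7 and 31.1, and Ubp1 at 7.88 and 10.7. Of the p53 relatives of Trp63, Trp53 had 20.3 and 24.7 TPM and Trp73 0.95 and 0.64.

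The transcript estimates were compared with reads over splice junctions. The junction table lies on mm9 and gives reads of both libraries in 1 sum, so junction reads are not split by library. The intervals of their shares cover counting error only, not the spread between libraries or along a gene. Of the 10 genes 8 could be tied to it by the lengths and spacing of their introns. A junction was counted only where its mm9 length equalled that of the mm10 intron, near the place given by the other introns. An intron whose length differs between the builds would therefore show no read, whatever its use. Foxq1 has no intron and Bhlha15 has only 1, so these were not tied. Reads were uneven along genes, from 46 to 2221 per intron in Elf3, and 1 intron of Ehf-201 and 2 introns of Grhl1-202 had no read although those transcripts did, so a junction without reads does not show that a form is absent.

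At the start of Trp63, the matched reads spliced into the shared exon came from the downstream start. The junction from the delta N exon into the shared exon (the sequences above) had 98 reads. The 3 introns upstream of the shared exon in the TA forms had no matched read. The delta N share of the matched reads was thus 100% (exact binomial 95% interval 96.3% to 100%). Whether the TA introns have the same length on mm9 was not checked, so this interval does not bound the TA share. Of the 17 annotated introns of Trp63, 14 had reads, the delta N junction included. Most introns after the shared exon belong to both TA and delta N forms, so their reads cannot be assigned to a start. The skip of the exon before the last is annotated only in the TA transcript Trp63-202, and it had 39 reads against 278 for the junction that keeps this exon, a share of 12.3% (interval 8.90% to 16.4%). By TPM, Trp63-202 held 5.19% and 4.71% of Trp63. Which start the transcripts with this skip used was not tested. By transcript TPM, TA forms held 5.72% of Trp63 in replicate 1 and 26.8% in replicate 2, on 88.4 and 851.5 read pairs. Most of the TA estimate of replicate 2 was Trp63-208, with 0 and 695.6 read pairs in the libraries and, in replicate 2, a posterior standard deviation of 124.7. The delta N share was thus 94.3% and 73.2% (83.7% ± 14.9). The delta N transcript Trp63-205 held 55.1% and 45.1% and the short-ended Trp63-204 held 39.0% and 27.7%. By posterior mean Trp63-205 held 46.45% and 36.8%. At 12 bases that Trp63-205 skips, 14 junction reads kept them and 7 skipped them, a kept share of 66.7% (interval 43.0% to 85.4%). By TPM the forms that keep these bases held 44.2% and 54.2%. Neither the keeping nor the skipping junction passed a limit set on the significance value given with the junction reads. The other Trp63 junctions whose reads are given here passed it. The junction into the short end had 31 reads and that into the long end 89, a short-end share of 25.8% (interval 18.3% to 34.6%).

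**Figure D4:**
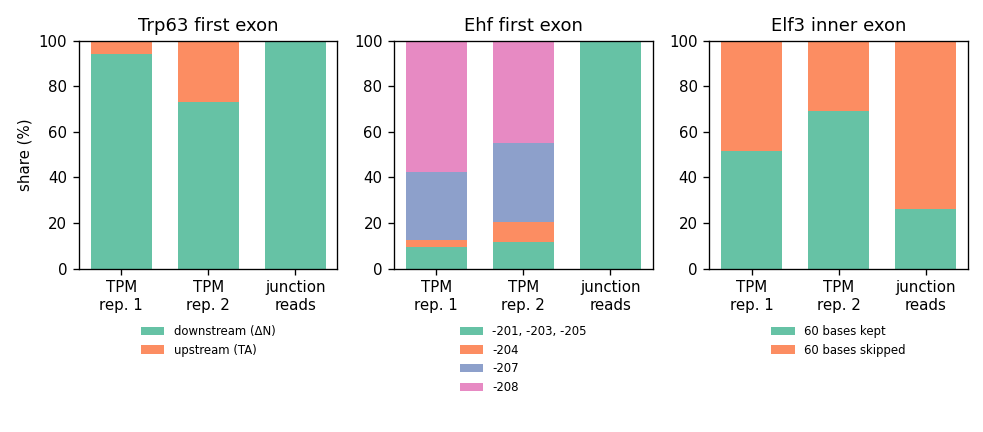
Share (%) of each transcript choice by TPM in replicates 1 and 2 and by junction reads of both libraries together, for the Trp63 start, the Ehf start and the 60 bases of Elf3. The matched reads spliced from the alternative starts give 100% to delta N and to the Ehf-201 start. The junction reads give 26.1% to the kept bases of Elf3, where TPM gives 51.6% and 69.0%.

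Ehf showed the widest gap between transcript TPM and junction reads. Its short annotated forms Ehf-208, of 530 bases, and Ehf-207, of 656 bases, held 57.5% and 29.8% of its TPM in replicate 1 and 44.8% and 34.8% in replicate 2. The full-length Ehf-201, of 4469 bases, received 541.6 and 693.3 read pairs, more than any other form. The junction from the first exon of Ehf-201, Ehf-203 and Ehf-205 had 91 reads. The junctions that are particular to the starts of Ehf-204, Ehf-207 and Ehf-208 had no matched read. With all read pairs placed on the longest transcript, Ehf would stand at 4.88 and 4.45 TPM, the deposited mean being 5.99-fold higher, and would fall from sixth to ninth among the 10 factors, close to Trp63 (3.62 and 6.76), Grhl3 and Grhl1.

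**Figure D5:**
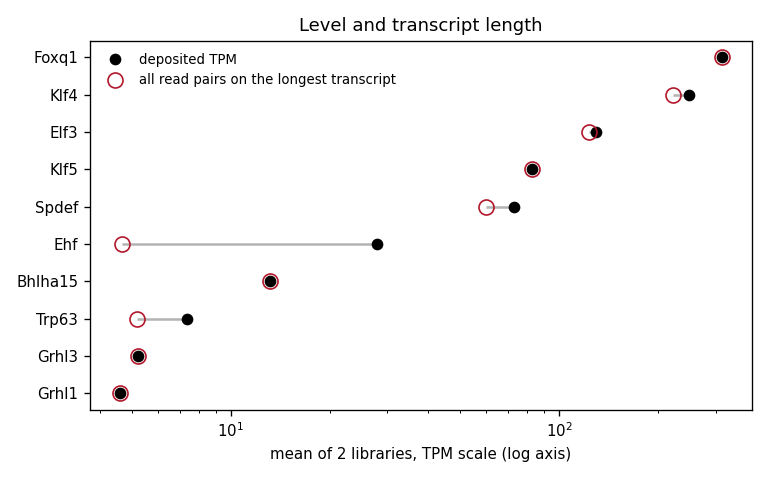
Mean level of each factor over both libraries (log axis) as deposited TPM (filled) and with all read pairs placed on the longest transcript in the tables (open). Ehf moves from 27.9 to 4.67, Trp63 from 7.37 to 5.19, and the others move by at most 1.22-fold.

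In Elf3 the balance of the 60 bases also differed by measure. The junction that keeps them had 249 reads and the junction that skips them 704, a kept share of 26.1% (interval 23.4% to 29.0%). By TPM the keeping forms held 51.6% and 69.0%, with Elf3-201 at 65.7 and 87.9 TPM and Elf3-202 at 62.6 and 40.1. Elf3-201 was above Elf3-202 in both libraries, narrowly in replicate 1 and more widely in replicate 2, while the total of Elf3 was nearly equal. Elf3-201 and Elf3-202 differ in their ends as well, which also enter the estimate.

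In Klf4 and Spdef, short forms changed between the libraries. Klf4-202, of 522 bases, took 6.31% of Klf4 TPM in replicate 1 and 17.4% in replicate 2, but 0.749% and 2.40% of its read pairs. The junctions of the full-length Klf4-201 had between 791 and 4180 reads. Spdef-203, a transcript that retains an intron, stood at 1.61 and 8.95 TPM while Spdef-201 stood at 88.2 and 43.7. Its share of Spdef TPM was 1.76% and 16.6%. The intron of Spdef-201 that Spdef-203 runs into was spliced in 711 reads. This structure is that of M21, while the TPM rest on the deposited models. Spdef-203 has 854 bases as deposited against 1045 in M21, and Spdef-201 has 1824 against 1921. Spdef-202, the longest form as deposited, has 2070 against 1568.

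All Grhl1 read pairs, 841 and 1067, were placed on the upstream start (Grhl1-202), and the downstream-start form Grhl1-201 had 0 in both libraries. By posterior mean Grhl1-201 held 2.3% in replicate 1 and 1.39% in replicate 2. The last junction before the exon common to both starts had 16 reads from the upstream side and no matched read from the downstream start. If the downstream junction has the same length on mm9, 0 of 16 reads allows a downstream share of up to 20.6% (exact binomial 95% interval). In the sequences above, the upstream window holds 2 GC boxes and 75.6% G and C, and the downstream window holds no GC box. Among 32851 RefSeq promoter windows of this length 32.7% hold a GC box and the median G and C content is 52.4%. Of the 10 factors 6 had RefSeq windows, Foxq1, Klf5, Ehf and Trp63 being the others. The Klf4 window holds 4 GC boxes and 74.0% G and C. The grainyhead core AACCGGTT, searched as its own reverse complement, is in none of the 7 windows and in 0.116% of all windows. Grhl3 has a single annotated transcript, and each of its 15 introns had junction reads, from 2 to 190. Its introns with 2 and 6 reads did not pass the limit on significance named for Trp63.

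The deposited counts of these genes were little affected by reads shared with other genes. The posterior standard deviation of the gene count was at most 0.44 read pairs. Of the factors 3 overlap other annotated genes. Foxq1 is overlapped on the opposite strand by A530084C06Rik, with 156 and 139 read pairs against 59182 and 34861, and those over Elf3 and Trp63 had none.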

How the data were processed

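The 2 stomach libraries (total expected counts 52363597 and 62452468) were analysed. Per the deposited tables and the README beside them, the authors quantified transcripts on mm10 with GENCODE M4. Expected counts, TPM, FPKM and posterior mean TPM per gene, and the percent of each transcript in its gene, were deposited by the authors. The deposited posterior standard deviation of the count was read as a signal that is never negative. The junction counts were deposited on mm9 as sums over both libraries. The aligner and the version of the quantifier were not given in the sources used. Symbols and positions came from GENCODE M21, which named 42462 of 43346 genes. Spike-ins and phiX stayed out of library sizes.

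Expected counts were rounded, scaled by TMM in edgeR 4.0.16 and compared as log2 CPM ratios with a prior count of 2. DESeq2 1.42.0 size factors were an alternative, and the ratio was tested on simulated data. Shares of junction reads have exact binomial intervals, which cover counting error only. At 3 read pairs on 1000 effective bases, a level is 0.0519 and 0.0437 TPM. The rule for named genes took all members, up to 4 relatives of highest TPM per list, and transcripts at 10% or more of a gene. It also allowed any relative at TPM 5 or more and up to 2 at 0, and not all of these were named. Ptf1a, with a mean of 4.03 TPM, was named outside this rule. The members, lists and markers were chosen with earlier results of these data known. No gene was named for a similar pattern, since 2 libraries give 1 ratio. Contigs on mm9 were not used.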

Additional observations from a re-analysis of the deposited data

How the results depend on the processing

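All 10 factors stayed at TPM 1 or more with posterior mean TPM, without Clps and Pgc, and in either library by itself, and 8 reached TPM 5 in both. The median TPM of the factors was 77.8 without Clps and Pgc in the total and 38.8 to 61.8 in single libraries. Scaling to spike-in counts left 0 factors past 2-fold. The median log2 ratio was -0.07 with TMM, -0.11 with DESeq2 size factors, -0.0537 by library size, -0.0265 by spike-ins, -0.0399 by TPM with a pseudocount of 1, -0.0863 with no filter before TMM, and 0.0618 when centred on protein-coding genes, a setting chosen after seeing the data, as were the longest-transcript and junction settings. Elf3 changed direction with DESeq2 size factors (-0.0293), with no filter (-0.0055) and by TPM (-0.0013). The other 9 factors kept their direction under 8 ratio settings, these and prior counts of 0.5 and 5. Klf4, lower in replicate 2 by scaled counts, was higher there by TPM without Clps and Pgc (361.6 and 421.1). The delta N share of Trp63 was 73.2% to 94.3% in single libraries and 100% of the matched junction reads into the shared exon. The cause of these differences was not tested. No paired analysis was possible because the series has 1 group. With 2 libraries, the SD is a rough measure, and Grhl3, Grhl1, Ehf and Trp63 rest on the fewest read pairs.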
